A study of Mus musculus with 24 samples.

Results

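Kcnf1, Kynu, St3gal6, Colec12, Prodh, Crisp3 and Megf10 are 7 of the 17097 genes measured on arrays in mouse leukaemia of B-cell precursors (preB-ALL). They were chosen by their log2 difference between LAP-transduced and control cells of a leukaemia line, as genes that were much lower with LAP and that are no usual markers of a blood lineage. LAP is the long form of C/EBPβ, which activates transcription. By their labels, BKO408 LAP cells (4 arrays) carry a Cebpb LAP retrovirus, and BKO408 cells (4 arrays) do not. Both are 1 line, grown out of a preB-ALL that a Blnk knockout mouse developed, and grew with 5 ng/ml IL-7. Blnk encodes an adaptor of the pre-B-cell receptor.

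The tumours were LAP/Blnk preB-ALL of Blnk knockout mice that also carried the Cebpb LAP transgene (n = 3), LAP B-ALL of Cebpb LAP transgenic mice (n = 4), LAP preB-ALL of Cebpb LAP transgenic mice (n = 4) and Blnk preB-ALL of Blnk knockout mice without the transgene (n = 5). The 3 groups of LAP tumours share the transgene, and LAP/Blnk and Blnk tumours share the knockout. The labels give neither the promoter of the transgene nor the age and strain of the mice, the tissue sampled or the vector control of the line. The cell line stands for 1 leukaemia, and nothing in the labels says that its arrays came from separate cultures, so its p-values measure only the spread between these arrays. Each value below is a log2 ratio, for a cell line array to the median of those 8 and for a tumour to that of the 16 tumours. Levels of expression were not kept, so cells and tumours have no common zero and levels cannot be set against each other between genes.

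Cebpb itself was not called higher in the arrays labelled LAP. It stood at 0.11, 0.24, 0.03 and -0.01 in BKO408 LAP cells 1 to 4 and at -0.14, 0.01, -0.05 and -0.06 in BKO408 cells 1 to 4, on the probe set of the largest spread (number 1427844). The groups overlap, and the difference of 0.15 did not pass (limma adjusted p = 0.0854, unadjusted p = 0.0233). The groups also overlap on the other 2 Cebpb probe sets, from -0.04 to 0.12 against -0.09 to 0.05 on 1418901 and from -0.06 to 0.04 against -0.07 to 0.16 on 1427843. The annotation used does not say whether these probe sets cover the part of Cebpb in the retrovirus. The labels of the cell line could therefore not be checked by the level of Cebpb, and "with LAP" below means the arrays so labelled.

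C/EBPβ is a basic leucine zipper factor that drives myeloid genes, and forced C/EBP activity can turn B-cell precursors towards macrophages while B-cell genes are shut off. The 7 genes belong to unrelated processes. Kcnf1 encodes an electrically silent potassium channel subunit that modifies other channel subunits rather than forming a channel alone. Kynu encodes kynureninase, which cleaves kynurenines in the breakdown of tryptophan, and Prodh encodes proline dehydrogenase, the mitochondrial enzyme that starts the breakdown of proline. St3gal6 encodes a sialyltransferase that helps to build selectin ligands. Colec12 encodes a scavenger receptor collectin known from endothelium, Megf10 an engulfment receptor of astrocytes and muscle stem cells, and Crisp3 a secreted cysteine-rich protein found in salivary gland and, in human, in neutrophil granules. RefSeq places Kynu on chromosome 2, Kcnf1 on 12, Prodh and St3gal6 on 16, Crisp3 on 17, and Colec12 and Megf10 on 18.

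RefSeq promoter windows of GRCm38.p6 were searched for Kcnf1, Prodh, Crisp3 and St3gal6, the last with 2 start sites. No window was searched for the remaining members, so the matches below describe the searched genes only. The 250 bases before the start are shown for the gene with the largest fall, for the gene whose window held a C/EBP core, and for the St3gal6 start whose window held a CCAAT box. Capitals mark the matches. All 3 genes lie on the minus strand, and the sequences read 5′ to 3′ towards the gene.
Kcnf1, chr12:17176889-17177138: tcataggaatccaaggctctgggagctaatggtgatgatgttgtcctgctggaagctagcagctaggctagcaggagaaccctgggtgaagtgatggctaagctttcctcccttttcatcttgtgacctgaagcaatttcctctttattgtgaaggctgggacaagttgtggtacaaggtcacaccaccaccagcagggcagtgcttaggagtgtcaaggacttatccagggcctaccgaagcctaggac
Crisp3, chr17:40242289-40242538: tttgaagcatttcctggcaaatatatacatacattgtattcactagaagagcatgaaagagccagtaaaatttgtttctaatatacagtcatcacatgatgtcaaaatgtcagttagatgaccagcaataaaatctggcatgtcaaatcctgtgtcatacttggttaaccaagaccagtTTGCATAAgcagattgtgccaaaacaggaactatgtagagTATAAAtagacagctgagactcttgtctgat
St3gal6, chr16:58524254-58524503: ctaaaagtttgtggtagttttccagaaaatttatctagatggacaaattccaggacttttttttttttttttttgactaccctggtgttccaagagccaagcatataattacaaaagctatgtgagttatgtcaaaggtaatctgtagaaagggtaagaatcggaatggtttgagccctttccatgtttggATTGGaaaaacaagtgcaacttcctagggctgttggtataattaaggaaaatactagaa

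The motifs searched on both strands were the C/EBP core TTGCNNAA, its palindromic form TTGCGCAA, which also counts as a core, the octamer ATGCAAAT, CCAAT and TATAAA. Of 32851 windows of the same length, 9.56% held the core, 0.164% the palindrome, 1.60% the octamer, 33.8% CCAAT and 12.4% TATAAA. Crisp3 held a core, TTGCATAA, from base -71 to -64 before the start, and TATAAA from -31 to -26. The printed St3gal6 window held CCAAT on the other strand from -59 to -55. The windows of Kcnf1, of Prodh and of the other St3gal6 start held none of these letters. The GC content was 51.2% for Kcnf1, 35.6% for Crisp3, 63.2% for Prodh, and 34.8% and 64.4% for the 2 St3gal6 starts, against a median of 52.4% over all windows.

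In the cell line the 7 genes were chosen for being lower with LAP, so the following values describe them and carry no test. Kcnf1 stood at -1.21, -1.33, -1.19 and -1.17 in BKO408 LAP cells 1 to 4, and at 1.17, 1.18, 1.29 and 1.36 in BKO408 cells 1 to 4. Its log2 difference of -2.48 ± 0.05 (SE, n = 4 and 4) is a 5.57-fold fall, and no gene fell further. The groups lie more than 2 log2 units apart with no array between them.

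Kynu stood at -0.64, -0.80, -0.66 and -0.74 with LAP, and at 1.04, 1.04, 0.64 and 1.03 without it, a difference of -1.65 ± 0.09 (3.14-fold). BKO408 array 3 was the lowest control, yet it lay well above every LAP array. The other Kynu probe set fell by 0.86. Prodh, the other enzyme of amino-acid breakdown, stood at -0.62, -0.59, -0.61 and -0.64 with LAP and at 0.73, 0.59, 0.72 and 0.72 without it. Its difference was -1.30 ± 0.04 (2.47-fold), and its LAP arrays spread over only 0.0234 (SD).

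St3gal6 stood at -0.74, -0.76, -0.82 and -0.85 with LAP and at 0.80, 0.76, 0.75 and 0.74 without it, a difference of -1.56 ± 0.03 (2.94-fold). A second of its 5 probe sets (number 1449079) fell by 1.46. The remaining 3 differed by -0.07 (1454246), -0.02 (1437635) and -0.08 (1443740). The mean of all 5 gave -0.64, so the size of this fall rests on 2 probe sets. The annotation used does not say which transcripts each probe set covers.

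Colec12 stood at -0.70, -0.61, -0.72 and -0.74 with LAP and at 0.67, 0.62, 0.66 and 0.61 without it, which is -1.33 ± 0.03 (2.52-fold). Crisp3 stood at -0.66, -0.62, -0.68 and -0.60 with LAP and at 0.64, 0.60, 0.71 and 0.65 without it, which is -1.29 ± 0.03 (2.45-fold). Megf10 stood at -0.57, -0.57, -0.60 and -0.55 with LAP and at 0.56, 0.57, 0.61 and 0.55 without it, which is -1.14 ± 0.03 (2.21-fold). In each of these genes the arrays of a group lay within 0.15 of each other, and the groups stood apart by more than 1.

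**Figure D1:**
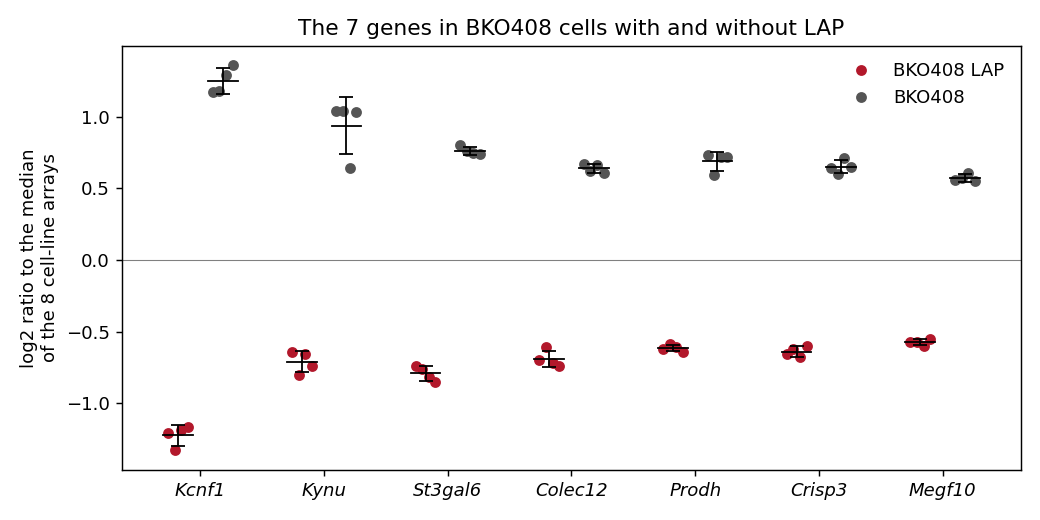
Log2 ratio of each of the 7 genes in the 8 cell-line arrays to their median (vertical axis), for BKO408 LAP cells (red, left) and BKO408 cells (grey, right). Points are arrays, lines are means and bars are SDs (n = 4 each); Kcnf1 shows the widest gap, -1.22 with LAP and 1.25 without.

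By size of fall the 7 genes took ranks 1, 3, 4, 7, 10, 11 and 15. The 8 other genes down to rank 15 were Dntt, Irf4, Gimap4, Igkj1, Rag1, Tmem255a, Rag2 and Sh3bgrl2. Just below Megf10 came Uaca at -1.12, Ceacam9 at -1.08, Cobll1 at -1.07, Gbp2 at -1.04 and Tnfrsf19 at -0.99. All 7 genes passed limma's test with groups that did not overlap, and 11.8% of all genes passed in the lower direction and 14.4% lay lower without overlap; the choice of the genes fixes their own count. The median difference was -1.33 over the 7 genes and -0.01 over all genes.

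The partners of these genes in their pathways were read from 7 lists, chosen with earlier results of these data known. Sialyltransferases other than St3gal6 held 3 lower and 1 higher of 18 measured in LAP cells (limma with Benjamini-Hochberg adjustment over all genes, by which 11.8% of all genes were lower and 10.5% higher). St3gal5, which makes the ganglioside GM3, ranged from -0.46 to -0.21 with LAP and from 0.21 to 0.66 without it, a fall of 0.75 (adjusted p = 0.000387). St6gal1, which makes the sialic acid linkage that Cd22 binds, ranged from -0.34 to -0.27 with LAP and from 0.27 to 0.37 without it, a fall of 0.64 (adjusted p = 1.03e-06). With the mean of all probe sets of each gene, St3gal5 stood at -0.77 and St6gal1 at -0.5, beside -0.64 for St3gal6. The polysialyltransferase gene St8sia4 fell by 0.18 (adjusted p = 0.000663) and stood at 0.09 with the mean of its probe sets, while St6galnac4 rose by 0.15 (adjusted p = 0.0487), a call lost in 7 of 15 alternatives. The list's median was -0.03, against -0.01 over all genes.

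Proline and ornithine metabolism split evenly around Prodh, with 2 higher and 2 lower of 11. Aldh18a1, which starts proline synthesis from glutamate, fell by 0.27 (adjusted p = 0.0119), and the ornithine aminotransferase gene Oat fell by 0.13 (adjusted p = 0.00542). Pycrl, a reductase of the last step of proline synthesis, rose by 0.17 (adjusted p = 0.00287) and the ornithine decarboxylase gene Odc1 by 0.19 (adjusted p = 0.0106). In the kynurenine list 0 of 11 genes passed around Kynu by limma, with 1 at an unadjusted p under 0.05, and the lowest adjusted p was 0.0891.

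The families of the other members gave few calls. Voltage-gated potassium channel genes had 1 higher and 1 lower of 23, with the silent subunit gene Kcns1 at -0.30 (adjusted p = 0.00108) and the auxiliary subunit gene Kcnab2 at 0.17 (adjusted p = 0.00739). Collectins and scavenger receptors had 1 and 1 of 17, with the lipoprotein receptor gene Scarb1 at -0.30 (adjusted p = 0.00033) and the lysosomal Scarb2 at 0.09 (adjusted p = 0.0358), a call lost in 9 of 15 alternatives. Engulfment genes had 0 higher and 1 lower of 14, the bridging protein gene Mfge8 at -0.29 (adjusted p = 0.000304). The CRISP and related family had 1 higher and 0 lower of 9, Glipr1 at 0.27 (adjusted p = 0.00591).

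The tumours asked whether the 7 genes also differ with the LAP transgene or the Blnk knockout in primary leukaemia, and the choice of the genes used none of these values. Some tumours stood apart from the rest. Mean log2 ratios of 6 erythroid markers were between 4.45 and 5.27 in LAP B-ALL 1 to 3 and LAP preB-ALL 4, and between -0.88 and 1.26 in the other tumours. On probe set 1427844, Cebpb stood at -3.11 in LAP B-ALL 4, between -1.41 and 0.90 in the other 10 LAP tumours and between -4.50 and -1.94 in Blnk tumours. Its other 2 probe sets overlapped between LAP and Blnk tumours. In such bulk samples fewer cells of a type and less RNA per cell cannot be told apart.

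Between LAP/Blnk and Blnk tumours, the tumour counterpart of the cell-line comparison, 0 of 7 genes passed by limma (0.0175% of all genes did), and 0 were under an unadjusted p of 0.05 (5.78% of all genes). In no gene did the groups lie apart without overlap (5.36% of all genes). Differences were negative for 6 genes, and 55.5% of all genes were negative. Their median was -0.31, against -0.02 over all genes. Kcnf1 came nearest, with a log2 difference of -0.68 (95% interval -1.39 to 0.03, adjusted p = 0.89). Megf10 differed by -0.34 (-0.96 to 0.29), Prodh by -0.26 (-0.89 to 0.37) and Kynu by -0.09 (-1.14 to 0.95). The intervals of these 4 genes end above their cell-line differences of -2.48, -1.14, -1.30 and -1.65. Those of St3gal6 (0.54, from -1.86 to 2.94), Colec12 (-0.31, from -2.26 to 1.65) and Crisp3 (-0.87, from -3.37 to 1.63) hold theirs. The difference between cells and tumours was not tested, because the cell-line comparison chose the genes. Those cell-line differences were picked for being large and no levels were kept, so the intervals do not show a smaller effect of LAP in tumours.

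Between LAP preB-ALL and Blnk tumours 0 of 7 genes passed by limma (0.0819% of all genes) and 0 lay apart (4.59%), with differences from -1.2 for Colec12 to 1.42 for St3gal6. Kcnf1 differed by -0.66 (unadjusted p = 0.0486, adjusted p = 0.375), the 1 of 28 tests of these genes in the tumours with an unadjusted p under 0.05 (13.2% of all genes in that comparison). Between LAP/Blnk tumours and LAP preB-ALL 0 passed (2.37% of all genes) and 0 were under an unadjusted p of 0.05 (18%), Prodh coming nearest at -0.63 (95% interval -1.29 to 0.03, adjusted p = 0.301). Prodh stood at -0.12, -0.34 and -0.43 in LAP/Blnk tumours and at -0.02, 1.16, 0.02 and 0.16 in LAP preB-ALL, the 1 pair of groups without overlap among these tests (8.18% of all genes lay lower without overlap there and 17.3% in either direction). Without LAP preB-ALL 2 its difference was -0.35. Between LAP B-ALL and LAP preB-ALL 0 of 7 genes passed, as did 0% of all genes. None was under an unadjusted p of 0.05 (11% of all genes) or lay apart (5.21%), with Kynu at 0.73 (-0.28 to 1.74, adjusted p = 0.572). A test of any difference among the 4 tumour groups passed for 2.65% of all genes and for none of the 7, with adjusted p from 0.33 for Kcnf1 to 0.907 for Crisp3 and 0 under an unadjusted p of 0.05.

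**Figure D2:**
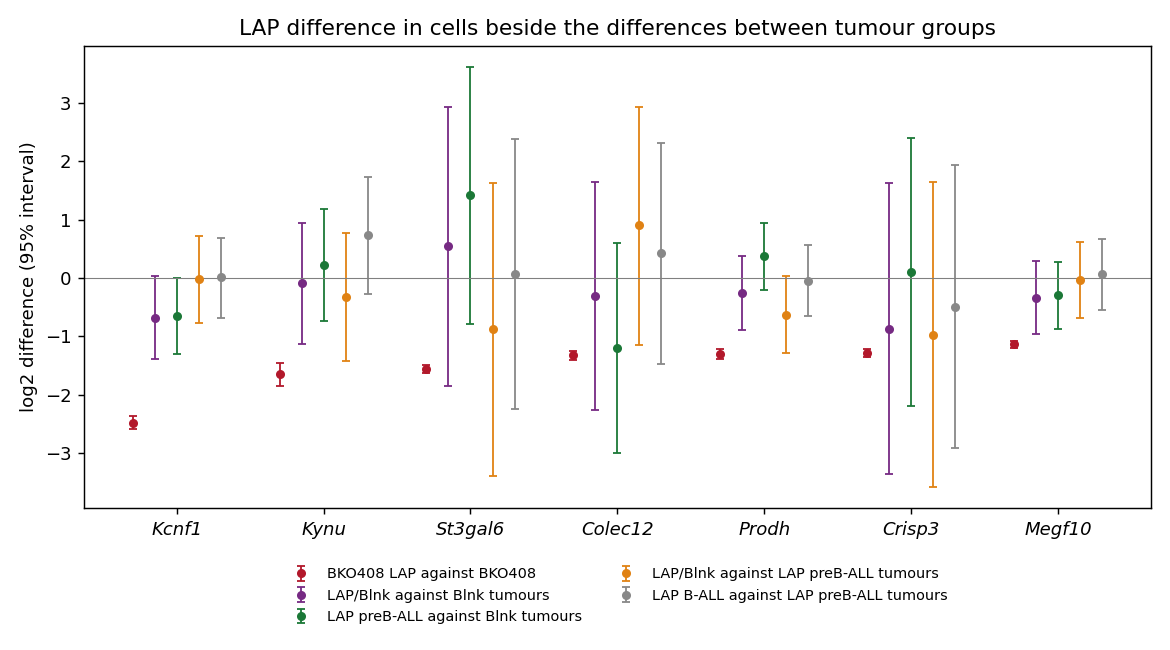
Log2 difference (vertical axis) of each of the 7 genes with its 95% interval from limma, for BKO408 LAP against BKO408 cells (red) and for the 4 comparisons of tumour groups. The red points lie between -2.48 and -1.14 and chose the genes; the tumour intervals hold 0, except that of Kcnf1 between LAP preB-ALL and Blnk tumours, which ends at it (-1.31 to 0.00) and does not pass after adjustment.

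The lists of partners gave 1 call in the same tumour comparisons, in 412 tests with Stab1 counted in both of its lists. Of these limma tests 41 were under an unadjusted p of 0.05. Between 5.78% and 18% of all genes were under it, depending on the comparison. St6galnac4 lay between -0.86 and -0.75 in LAP/Blnk tumours, against 0.67 to 1.09 in LAP preB-ALL, a fall of 1.69 (limma adjusted p = 0.00537). In that comparison 2.37% of all genes passed. The groups lay far apart, although the call was lost in a fit with the replicate number as a block (adjusted p = 0.266).

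The 7 genes varied among single tumours instead. Their SD over the 16 tumours was 1.61 for St3gal6, 1.57 for Crisp3, 1.29 for Colec12, 0.761 for Kynu, 0.531 for Kcnf1, 0.451 for Prodh and 0.400 for Megf10, against a median of 0.278 over all genes. These SDs rank from the 67th percentile of all genes for Megf10 to the 98.3rd for St3gal6. Every gene was read by its probe set of the largest spread, which favours a large SD where a gene has several. The other Kynu probe set had an SD of 0.146 over the tumours. The other St3gal6 probe sets had SDs of 1.61 (1449079), 1.24 (1454246), 0.586 (1437635) and 0.0777 (1443740). The remaining genes have 1 probe set each.

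Crisp3 stood at -0.03, -0.05 and 0.32 in LAP/Blnk tumours, at -0.09, -0.02, -0.14 and 2.51 in LAP B-ALL, in LAP preB-ALL at 0.07, -0.05, 4.26 and -0.04, and at -0.02, 0.02, 4.52, 0.13 and 0.10 in Blnk tumours. It was thus high in 1 tumour each of 3 groups, and 13 tumours lay within 0.5 of their median. The span from lowest to highest was 25.2-fold. Mean ratios of 9 granulocyte markers in the high tumours were 2.48 in LAP B-ALL 4, -1.17 in LAP preB-ALL 3 and 0.21 in Blnk tumour 3. They were highest (3.16) in Blnk tumour 5, where Crisp3 was at 0.10, so high Crisp3 occurred with high and with low granulocyte markers.

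Megf10 was high in 1 tumour, Blnk tumour 3, at 1.5, and lay between -0.25 and 0.16 in the other 15. Kcnf1 was high in Blnk tumours 1 and 3, at 1.49 and 1.52, and lay between -0.14 and 0.27 in the other 14. The nearest differences of Kcnf1 above rest on these tumours, each left out alone. LAP/Blnk against Blnk tumours gave -0.46 without Blnk tumour 1 and -0.46 without Blnk tumour 3. LAP preB-ALL against Blnk tumours gave -0.44 without Blnk tumour 1 and -0.43 without Blnk tumour 3. Leaving out both at once was not tried.

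Kynu stood at -0.32, 0.13 and -0.19 in LAP/Blnk tumours, at 2.68, 0.03, 1.2 and -0.18 in LAP B-ALL, at 0.41, 0.69, -0.03 and -0.26 in LAP preB-ALL and between -0.36 and 0.17 in Blnk tumours. Only LAP B-ALL 1 and 3 stood above 1, and the next highest was LAP preB-ALL 2. Macrophages also use kynureninase, and 10 monocyte and macrophage markers averaged 0.86 in LAP B-ALL 1 and 1.63 in LAP B-ALL 3. They averaged 0.82 in LAP B-ALL 2, 0.74 in LAP preB-ALL 4 and 0.97 in Blnk tumour 5, where Kynu stood at 0.03, -0.26 and -0.03. By group these markers spanned -0.77 to -0.44 (LAP/Blnk tumours), -0.02 to 1.63 (LAP B-ALL), -1.19 to 0.74 (LAP preB-ALL) and -0.62 to 0.97 (Blnk tumours). In LAP B-ALL 1 and 3 the erythroid (4.45 and 5.27), T-cell (1.37 and 1.87) and granulocyte markers (1.9 and 1.79) were raised too. The B-lineage markers averaged -2.11 and -2.61 there. In LAP B-ALL 2, with Kynu at 0.03, these lists stood at 4.51, 1.27, 1.94 and -1.99 in the same order. The part of any of these cell types in the Kynu values was not tested. The other Kynu probe set stood at 0.29 in LAP B-ALL 1, its highest value, at -0.01 in LAP B-ALL 3, and at 0.20 in LAP/Blnk tumour 1 and 0.21 in Blnk tumour 5. Over the tumours the 2 probe sets correlated with r = 0.42 (rho = -0.02, n = 16), so the height of Kynu in both LAP B-ALL tumours rests on 1 probe set.

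Prodh stood highest in LAP preB-ALL 2 (1.16) and between -0.49 and 0.58 in the other 15 tumours, with a span of 3.13-fold. It stood at 0.58, 0.25, 0.47 and -0.20 in LAP B-ALL and at 0.38, -0.20, -0.37, -0.49 and 0.51 in Blnk tumours, which overlap. The 6 T-cell markers averaged 1.29 in LAP preB-ALL 2. They averaged 1.37, 1.87 and 1.18 in LAP B-ALL 1, LAP B-ALL 3 and Blnk tumour 5, the next highest in Prodh. In LAP preB-ALL 4 and Blnk tumour 1 they averaged 1.55 and -0.45, where Prodh stood at 0.16 and 0.38. By group they spanned -0.67 to -0.19 (LAP/Blnk), -0.02 to 1.87 (LAP B-ALL), -0.12 to 1.55 (LAP preB-ALL) and -0.5 to 1.18 (Blnk). Their part in the Prodh values was not tested.

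**Figure D3:**
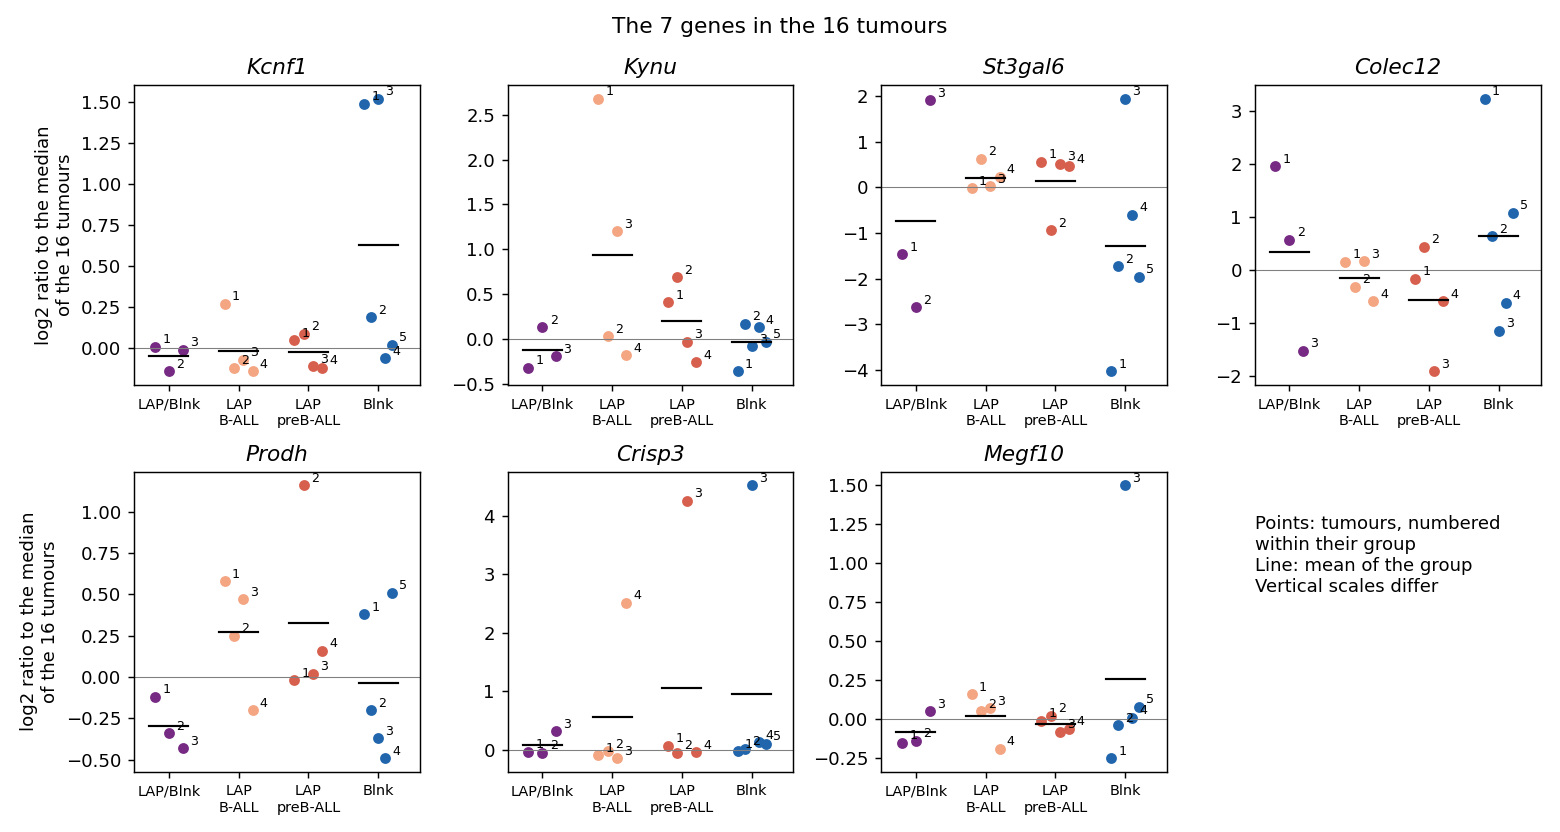
Log2 ratio of each of the 7 genes to the median of the 16 tumours (vertical axes, scales differ), by group from LAP/Blnk to Blnk. Points are tumours numbered within their group and lines are group means; Blnk tumour 3 is the highest point for Kcnf1, St3gal6, Crisp3 and Megf10.

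Blnk tumour 3 was the highest of the 16 tumours for 4 of the 7 genes, at 1.52 for Kcnf1, 1.94 for St3gal6, 4.52 for Crisp3 and 1.5 for Megf10. That tumour was the highest for 3.88% of all genes, and 3.04% of all genes stood at 1 or more in it. No other tumour was the highest for more than 1 of the 7. In the same tumour Colec12 was at -1.14, Prodh at -0.37 and Kynu at -0.08. The mean of 9 B-lineage markers there was 0.86, at rank 3 of the tumours, that of the monocyte and macrophage markers -0.07 and that of 9 stromal and endothelial markers 0.19. This tumour was noticed in these values, so the count is a description.

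St3gal6 stood at -1.47, -2.63 and 1.90 in LAP/Blnk tumours, at -0.02, 0.62, 0.02 and 0.23 in LAP B-ALL, in LAP preB-ALL at 0.55, -0.94, 0.51 and 0.46, and at -4.03, -1.73, 1.94, -0.60 and -1.96 in Blnk tumours. The knockout tumours thus held both the lowest and the highest values, a 62.7-fold span. The SD was 2.35 in LAP/Blnk and 2.18 in Blnk tumours, against 0.293 in LAP B-ALL and 0.721 in LAP preB-ALL. This difference in spread was not tested. The probe set that shared the fall in cells agreed over the tumours (r = 0.98, n = 16). Probe set 1454246 followed the tumours closely too (r = 0.91), although it differed by only -0.07 between LAP and control cells. The other 2 did not follow (r = 0.06 and 0.03).

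Colec12 stood at 1.96, 0.57 and -1.52 in LAP/Blnk tumours, at 0.16, -0.31, 0.17 and -0.59 in LAP B-ALL, in LAP preB-ALL at -0.16, 0.44, -1.91 and -0.59, and at 3.24, 0.64, -1.14, -0.61 and 1.08 in Blnk tumours. Its order runs against that of St3gal6: Blnk tumour 1 was the highest in Colec12 and the lowest in St3gal6. The correlation of the pair over the 16 tumours was r = -0.86 (rho = -0.84), and r = -0.81 without Blnk tumour 1 and LAP/Blnk tumour 2, the farthest in St3gal6. Within the 8 tumours of Blnk knockout mice r was -0.89, and within the 8 LAP tumours with intact Blnk it was -0.60. The St3gal6 probe set that fell with it in cells gave r = -0.84 with Colec12, and probe set 1454246 gave r = -0.79. Of the 4092 genes with an SD of at least 0.5 over the tumours, St3gal6 had the most negative r with Colec12. The pair was singled out after its values were seen, and each point shares its array, so these correlations describe the tumours. In LAP cells both genes were low together.

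**Figure D4:**
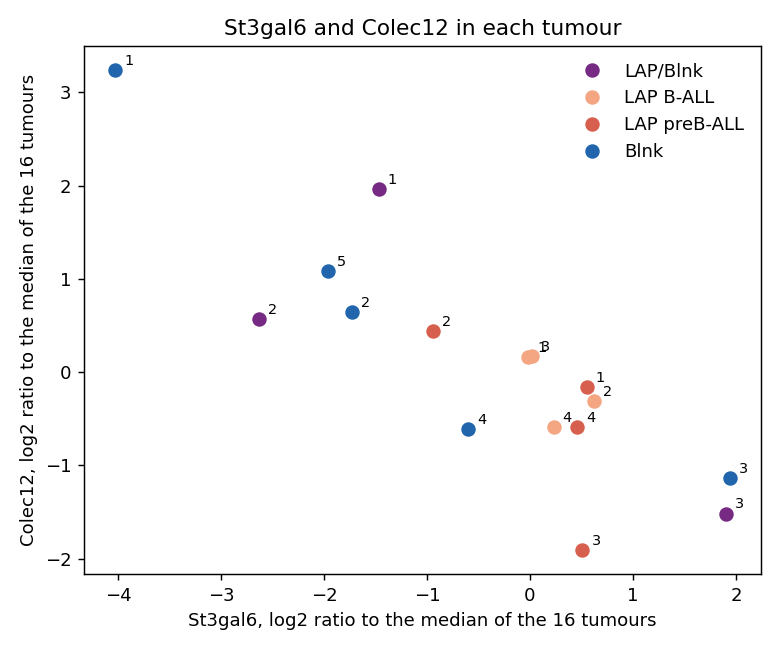
Colec12 (vertical axis) against St3gal6 (horizontal axis) in each of the 16 tumours, both as log2 ratios to the tumour median, coloured by group and numbered within it. Along St3gal6 the values run from Blnk tumour 1, at -4.03 in St3gal6 and 3.24 in Colec12, to Blnk tumour 3, at 1.94 and -1.14. The lowest in Colec12 is LAP preB-ALL 3, at 0.51 in St3gal6 and -1.91 in Colec12.

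Over all 21 pairs of the 7 genes r ranged from -0.86 to 0.57 (median 0.00), and 3 pairs reached 0.5. These were Kcnf1 with Megf10 (0.57), Crisp3 with Megf10 (0.56) and St3gal6 with Megf10 (0.51), and all 4 of these genes were highest in Blnk tumour 3. Kcnf1 with Megf10 gave 0.51 without Blnk tumours 3 and 1, and Crisp3 with Megf10 gave -0.37 without Blnk tumour 3 and LAP preB-ALL 3. St3gal6 with Megf10 gave 0.48 without Blnk tumour 1 and LAP/Blnk tumour 2, which leaves Blnk tumour 3 in. Kcnf1 with Kynu gave -0.10 over all tumours and 0.63 without Blnk tumours 3 and 1.

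The genes most like each member over the 16 tumours were read among the 4092 genes with an SD of at least 0.5, and the 2 nearest differed from one member to the next. Prodh ran closest to Sowahc (r = 0.91, rho = 0.86) and to Nfil3, a basic leucine zipper repressor gene (r = 0.90, rho = 0.88), with 0.82 and 0.77 without the 2 farthest tumours. In the cell line Sowahc and Nfil3 differed by -0.03 and -0.07 and were not called. Colec12 ran closest to Pqlc3 and Mgarp (r = 0.80 each, and 0.64 and 0.56 without the 2 farthest tumours), and these 2 genes were also lower in LAP cells, at -0.31 and -0.79. St3gal6 ran closest to Xist, the RNA of the inactive X chromosome (r = 0.76, 0.71 without the farthest), and to the GTPase gene Gimap8 (r = 0.75, 0.43 without them), which was at -0.78 in LAP cells. Xist differed by -0.01 in those cells and was not called.

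Kynu ran with Wnt10a and Pgbd5 (r = 0.93 each), which gave 0.71 and -0.10 without LAP B-ALL 1 and 3. Crisp3 ran with Ano1 and Elf5 (r = 0.92 each, 0.38 and 0.25 without Blnk tumour 3 and LAP preB-ALL 3), Megf10 with Sytl4 and Lonrf3 (r = 0.94 and 0.93, -0.14 and 0.03 without the 2 farthest tumours) and Kcnf1 with Kcnk1 and 9530077C05Rik (r = 0.75 and 0.70, -0.18 and 0.00). Of these genes only 9530077C05Rik was called in the cell line, at -0.38 (limma adjusted p = 0.000182). The others differed there by -0.10 (Wnt10a) to 0.03 (Kcnk1). Of all genes, 11.8% were called lower in the cell line.

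Other cell types were read through marker lists. In the cell line 9 B-lineage markers averaged -0.20 to -0.17 with LAP and 0.20 to 0.27 without it, with 3 lower, 1 higher and a median difference of -0.12. Of all genes, 11.8% were called lower and 10.5% higher. Dntt (-1.91) and Rag1 (-1.32) are among these markers, so the shift of their mean lies largely in these genes. The 10 monocyte and macrophage markers averaged 0.18 to 0.23 with LAP and -0.28 to -0.17 without it, with 3 higher, 0 lower and a median difference of 0.02, so the shift of the mean lies in a few of them. Stromal and endothelial markers averaged -0.08 to -0.03 with LAP and 0.02 to 0.09 without it. In the tumours the B-lineage markers averaged 0.26 to 0.97 in LAP/Blnk tumours, -2.61 to 0.93 in LAP B-ALL, -2.55 to -0.32 in LAP preB-ALL and -0.25 to 0.86 in Blnk tumours. The 9 stromal and endothelial markers averaged 0.13 to 0.63 in LAP/Blnk tumours, -1 to 0.41 in LAP B-ALL, -0.95 to 0.22 in LAP preB-ALL and -0.04 to 1.27 in Blnk tumours. Blnk tumour 1, the highest in Colec12, was at 0.10. The part of these cells in the tumour values was not tested, and centred ratios do not show whether a marker was absent.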

How the data were processed

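RNA of 24 samples was labelled from 100 ng of total RNA as biotinylated cRNA for an Affymetrix array, per the labels' protocols. The submitters' processing notes name MAS5 alone, without a version. The authors deposited centred log ratios, read here as log2 although no label states the base; a natural log would make each fold larger. By the values, the median of each probe set is 0 in the 8 cell-line arrays and again in the 16 tumours, so no level, detection call or filter on dim probes was available.

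Of 45141 probe sets, 28898 had 1 gene symbol in an annotation table of 2016, 551 several and 15692 none. For each of 17097 genes the probe set that varied most within the cell-line arrays and within the tumours was used; the 7 genes have 12 probe sets. The unit and the tests are those planned. limma 3.58.1 in R 4.3.3 (lmFit, eBayes without trend, two-sided, Benjamini-Hochberg over all genes, threshold 0.05) compared the groups, with the 8 cell-line arrays in one fit and the 16 tumours in another. The script was tested on simulated data. The precision is limited by the number of arrays. The genes, lists and tests were chosen with earlier results of these data known. Named genes were the 7 genes with every probe set, the 5 next falls, the 2 genes of highest Pearson correlation with each over the tumours among those with a tumour SD of at least 0.5, and up to 4 called genes per pathway list. Alternatives were the mean of probe sets, quantile normalisation, the more variable genes alone, limma-trend, array weights, a replicate block, other samples in the fit, other probe sets and leaving out each sample. Deviations of same-numbered samples from their group means correlated at -0.64 to 0.38. Tumours numbered 3 gave 0.38 for LAP/Blnk with Blnk and 0.38 for LAP preB-ALL with Blnk. They gave 0.15 for LAP/Blnk with LAP preB-ALL and -0.24 for LAP B-ALL with LAP preB-ALL. The correlations had no common sign, so the numbers were not taken as pairs. Promoter sequences are from RefSeq, GRCm38.p6.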

Additional observations from a re-analysis of the deposited data

Results flagged for a closer look

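Single samples stood apart from their group in 9 of 35 groups of values tested with Dixon's criterion, which chance flags in about 1 in 20. In the tumours Crisp3 was apart at 4.52 in Blnk tumour 3 (the other 4 from -0.02 to 0.13), at 4.26 in LAP preB-ALL 3 (the others from -0.05 to 0.07) and at 2.51 in LAP B-ALL 4 (the others from -0.14 to -0.02). Megf10 was apart at 1.5 in Blnk tumour 3 (the others from -0.25 to 0.08) and Kcnf1 at 0.27 in LAP B-ALL 1 (the others from -0.14 to -0.07). LAP preB-ALL 2 was apart both in St3gal6, at -0.94 (the others from 0.46 to 0.55), and in Prodh, at 1.16 (the others from -0.02 to 0.16). In the cell line Kynu was apart at 0.64 in BKO408 array 3 (the others from 1.03 to 1.04) and Prodh at 0.59 in BKO408 array 2 (the others 0.72 to 0.73). LAP/Blnk tumours, with 3 samples, were not tested.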

How the results depend on the processing

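In the tumours none of 567 alternative tests of the 7 genes passed (lowest adjusted p 0.0859, Prodh among the 4 groups with array weights), and 32 of 420 differences between 2 groups took the other sign. In the cell line all 110 alternative differences of these genes stayed negative; with quantile normalisation Kcnf1 was at -3.16 and Megf10 at -1.24, with the mean of probe sets Kynu at -1.25 and St3gal6 at -0.64. Of the called pathway genes St8sia4 took the other sign with the mean of probe sets (0.09); all cell-line ones lost their calls with all 24 arrays in one fit, Scarb2 lost 9 and St6galnac4 7 of 15 alternatives, and Kcnab2 was lost with the mean of probe sets.

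Counts of called genes moved more. In the cell line 3820 genes became 21 with all 24 arrays in one fit, 3427 with the replicate block and 3080 to 3515 without 1 array. For LAP/Blnk against Blnk tumours 3 genes became 29 with quantile normalisation, 33 with array weights, 0 with the replicate block and 2 to 13 without 1 tumour (8 and 13 without LAP/Blnk 1 and 3). For LAP preB-ALL against Blnk tumours 14 became 0 with the mean of probe sets, 2 with quantile normalisation, 3 with the more variable genes alone, 24 with array weights, 0 with the replicate block, 5 with only both groups and 0 to 17 without 1 tumour. For LAP/Blnk against LAP preB-ALL 406 became 262 with the more variable genes alone, 50 with only both groups, 0 with the replicate block and 85 to 304 without 1 tumour. For LAP B-ALL against LAP preB-ALL 0 (1886 under an unadjusted p of 0.05) became 4 with array weights, 0 with the replicate block and 0 to 291 without 1 tumour, the highest without LAP preB-ALL 4. Among the 4 groups 453 became 3685 with array weights and 200 to 1565 without 1 tumour, the highest without LAP B-ALL 4. Apart from construction (fewer genes or samples, or tumours added to the cell-line fit), the cause was not tested. The replicate number is a number only: same-numbered tumours did not correlate in every pair, and the block changed no call of the 7 genes.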
